A study of Rattus norvegicus with 16 samples.

Results

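Voltage-gated sodium channels carry the fast inward current that starts and propagates the action potential of sensory neurons. Each channel has a pore-forming alpha subunit, which alone conducts sodium, and one or more beta subunits, which are single-pass membrane proteins that shift gating, surface density and resurgent current. Small unmyelinated nociceptors are known for the tetrodotoxin-resistant alpha subunits Nav1.8 and Nav1.9, large myelinated neurons for Nav1.1 and Nav1.6, and Nav1.7 is found across most of these cells. The 9 genes described here were the alpha subunit genes Scn1a, Scn3a, Scn8a, Scn9a, Scn10a and Scn11a and the beta subunit genes Scn2b, Scn3b and Scn4b. They were taken as the rows with exactly these symbols out of 21021 genes in each table, and all 9 were found once.

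RNA was sequenced from dorsal root ganglia (DRGs) of adult female Sprague-Dawley rats, a wild-type outbred strain, and the L3 to L5 ganglia on the injected side of 1 animal were pooled as 1 sample. In the tumor cell implantation (TCI) groups, Walker 256 rat mammary carcinoma cells were injected into the left tibia, and ganglia were taken 1, 7 or 14 days later. Sham rats received an injection without living tumor cells into the same bone, which the labels give as PBS and the methods as boiled cells, and their ganglia were taken only on day 14, so that for TCI days 1 and 7 the treatment and the days elapsed after the operation cannot be told apart. Each of the 4 groups held 4 samples, 16 in all. The study's text keeps 14 of them, without replicate 2 of TCI day 1 and replicate 3 of TCI day 7, and values below are over those 14 unless all 16 are named.

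Levels were FPKM, read fragments scaled by transcript length and by the mapped total, which allows levels of different genes to be set side by side. The tables hold no read totals or counts behind a value, read numbers given elsewhere by the study were not used here, and the FPKM of a sample summed to between 436572 and 473959. Differences are log2 fold changes of FPKM + 1 from limma, fitted over the 14023 genes that reached 1 FPKM in 3 samples or more, and a gene was called at a Benjamini-Hochberg adjusted p of at most 0.05 over all of them. Of the 9 sodium channel genes 8 passed this filter. The neuronal origin of the tissue was checked with 15 pan-neuronal genes, none of which was at 0 in any group and whose summed level was 8570 to 8942 FPKM in sham samples, and 6 sensory neuron genes summed to 1637 to 1984 FPKM there. Replicate 3 of TCI day 7 stood apart, with 26946 FPKM over 15 skeletal muscle genes, against 11.8 to 612 FPKM in sham samples, and 5524 FPKM over the pan-neuronal genes. In replicate 4 of TCI day 7, replicate 3 of TCI day 14 and the left-out replicate 3 of TCI day 7, long genes were low, as given with Scn8a below.

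In sham ganglia the beta4 subunit gene Scn4b had the highest level of the 9, followed by Scn10a and Scn11a, which encode Nav1.8 and Nav1.9. The mean level was 126 ± 7.63 FPKM for Scn4b (SD, n = 4 here and for the following sham means), which was above 97.2% of all genes. It was 97.6 ± 6.09 FPKM for Scn10a and 64.4 ± 5.70 FPKM for Scn11a. Scn9a, which encodes Nav1.7, the channel whose loss abolishes pain sensation in humans, was at 35.5 ± 1.61 FPKM. Scn8a, which encodes Nav1.6 of nodes of Ranvier, was at 26.8 ± 2.04 FPKM, and Scn1a, which encodes Nav1.1, was at 26.0 ± 2.77 FPKM. The beta subunit genes Scn3b and Scn2b were at 19.8 ± 1.33 and 18.1 ± 2.81 FPKM. Scn3a, which encodes Nav1.3, a channel of the embryonic nervous system, was at 0.828 ± 0.0568 FPKM and reached 1 FPKM in 1 of 14 samples, so it was not tested.

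Neighbours in this order kept apart in sham samples with the exception of Scn8a beside Scn1a and Scn3b beside Scn2b, whose ranges overlapped. Over the 14 samples of all groups, Scn4b was above Scn10a in 14 of 14, Scn10a above Scn11a in 14 of 14 and Scn11a above Scn9a in 14 of 14. Scn8a was above Scn1a in 5 of 14 samples. Scn10a held 38.9% of the summed FPKM of the 6 alpha subunit genes in sham ganglia and Scn11a held 25.7%. The tetrodotoxin-resistant pair therefore made up the larger share of the summed FPKM of these 6 genes. Other genes of the family were not in this sum, among them Scn7a at 134 FPKM in sham.

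**Figure D1:**
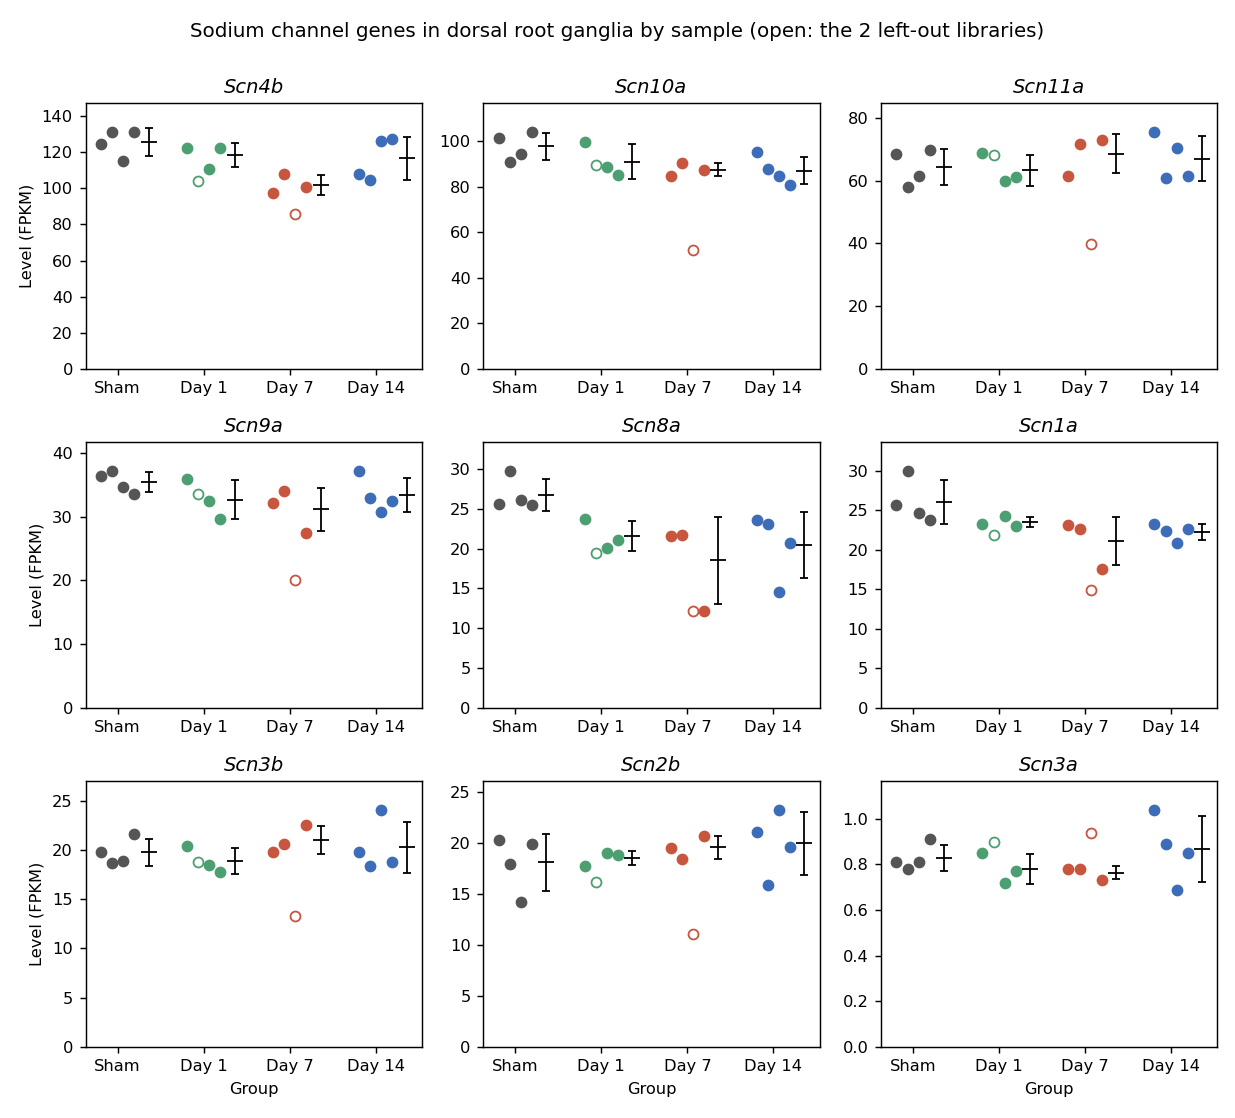
FPKM (vertical axes, from 0) of the 9 sodium channel genes in each of the 16 samples, by group. Filled points are the 14 samples kept, open points the 2 left out, and the bars beside them the mean and SD of the kept samples. All Scn8a points of the TCI groups lie below the lowest sham sample at 25.48 FPKM. The kept Scn4b points of day 7 lie at 97.26 to 107.8 FPKM and the left-out one at 85.65 FPKM. All of these are below the lowest sham sample of Scn4b at 115.1 FPKM.

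The study asked how ion channel expression in the ganglia changes as bone cancer and its pain develop. On TCI day 7, Scn4b and Scn1a fell by 18.9% and 18.7% of their sham mean, and none of the 9 genes was called higher. The count called was 0 of 8 tested on day 1, 2 of 8 on day 7, both lower, and 0 of 8 on day 14. Over all genes tested, 0% were called on day 1, 17.9% on day 7, of which lower genes made up 3.45% of the genes tested, and 15.1% on day 14. At an unadjusted p under 0.05 limma gave 0 of the 8 on day 1, 5 on day 7 and 3 on day 14, against 5.23%, 31.2% and 29.9% of all genes. The study itself required a log2 change of 1 or more in either direction with an adjusted p no higher than 0.001. With these cut-offs applied to the limma fit of FPKM, 0 of the 8 passed on each day, where 0%, 1.83% and 0.642% of all genes passed. The study used them with a different method and reported many more genes passing on every day, day 1 included, so these shares are not its counts. In RNA of whole ganglia, fewer neurons and less channel RNA per neuron cannot be told apart.

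Scn4b, whose product provides the blocking peptide of resurgent sodium current, was the channel gene with the lowest adjusted p. Its levels in sham replicates 1 to 4 were 124.8, 131.3, 115.1 and 131.3 FPKM. On TCI day 7 they were 97.26, 107.8 and 100.6 FPKM in replicates 1, 2 and 4, so every day 7 sample was below every sham sample, as was the left-out replicate 3 at 85.65 FPKM. The mean fell by 18.9%, with a log2 fold change of -0.30 (SE 0.08, adjusted p = 0.0168 by limma). On day 1 the kept samples were at 122.5, 110.5 and 122.2 FPKM and overlapped the sham range. On day 14 they were at 108, 104.5, 126.4 and 127.3 FPKM, with 2 below the sham range and 2 within it, and the log2 fold change against sham was -0.11 (SE 0.07, adjusted p = 0.327 by limma). Between days 14 and 7 the log2 difference of Scn4b was 0.19 with an adjusted p of 0.438 by limma, so a return from the day 7 level was not shown. The day 7 call was lost when replicate 1 of TCI day 7 was left out (adjusted p = 0.0739 by limma) and when its replicate 4 was left out (adjusted p = 0.0525 by limma).

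Scn1a was at 25.63, 29.98, 24.62 and 23.74 FPKM in sham replicates 1 to 4. On day 7 it was at 23.13, 22.67 and 17.62 FPKM in replicates 1, 2 and 4, all below the sham range, with replicate 4 the lowest. The mean fell by 18.7% and the log2 fold change was -0.29 (SE 0.09, adjusted p = 0.0432 by limma). Without replicate 4 of day 7 the log2 fold change was -0.17 with an adjusted p of 0.184, so that this library set much of its size, and the call held in 5 of 14 fits that left out 1 sample each, those without replicate 4 of sham, replicates 1 or 2 of day 7 and replicates 2 or 3 of day 14. The adjusted p over the 14 fits ran from 0.0366 to 0.184. On day 14 Scn1a was at 23.22, 22.32, 20.79 and 22.62 FPKM, again all below the sham range, and the log2 fold change of -0.21 (SE 0.08) had an adjusted p of 0.111 by limma. On day 1 the levels of 23.27, 24.26 and 23.05 FPKM overlapped those of sham.

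Scn8a had the largest day 7 difference in size of the 8 genes and also the largest standard error. Its sham replicates 1 to 4 were at 25.6, 29.79, 26.16 and 25.48 FPKM. The TCI samples were at 23.69, 20.09 and 21.04 FPKM on day 1, at 21.59, 21.76 and 12.23 FPKM on day 7, and at 23.64, 23.07, 14.58 and 20.75 FPKM on day 14. The 2 left-out libraries were at 19.42 FPKM on day 1 and 12.23 FPKM on day 7. All 12 TCI samples were thus below all 4 sham samples, a pattern noticed after the values were seen, which 1.15% of the genes tested shared. The log2 fold change was -0.30 (SE 0.19) on day 1, -0.55 (SE 0.19) on day 7 and -0.39 (SE 0.17) on day 14, and the adjusted p by limma was 0.974, 0.0587 and 0.148. With all 16 samples the day 7 value was -0.68 and was called, with an adjusted p of 0.0178, in a fit that called 4.76% of all genes lower.

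The lowest kept samples of Scn8a were replicate 4 of day 7 and replicate 3 of day 14, and both were libraries low in long genes. To measure this, the median difference from the sham mean was taken over 2036 genes spanning at least 100 kb and over 3355 genes spanning under 10 kb, by their RefSeq gene length in GRCr8, found for 95.9% of the genes tested. The long genes minus the short ones came to -0.28 in both of these libraries, on the log2 scale, and to -0.32 in the left-out replicate 3 of day 7. In the other 13 libraries this value lay between -0.13 and 0.04. Over the 14 samples the log2 level of Scn8a, a gene spanning 174 kb, had a Pearson r of 0.97 with this difference, given as a description since both come from the same libraries. The part of this shortfall in the Scn8a values was not tested. With replicate 4 of day 7 alone left out the day 7 log2 fold change of Scn8a was -0.29 (adjusted p = 0.245 by limma), and with replicate 3 of day 14 alone left out the day 14 value was -0.24 (adjusted p = 0.32 by limma). Without both libraries, an alternative chosen after seeing the data, the log2 fold change of Scn8a was smaller and its spread narrower, at -0.29 on day 7 (adjusted p = 0.026 by limma) and -0.24 on day 14 (adjusted p = 0.034 by limma), both called in a fit that called 4.2% and 4.73% of all genes lower on these days. Scn1a was then at -0.17 on day 7 with an adjusted p of 0.138, and Scn4b, which spans 15.2 kb, was at -0.29 with an adjusted p of 0.0341 by limma.

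**Figure D2:**
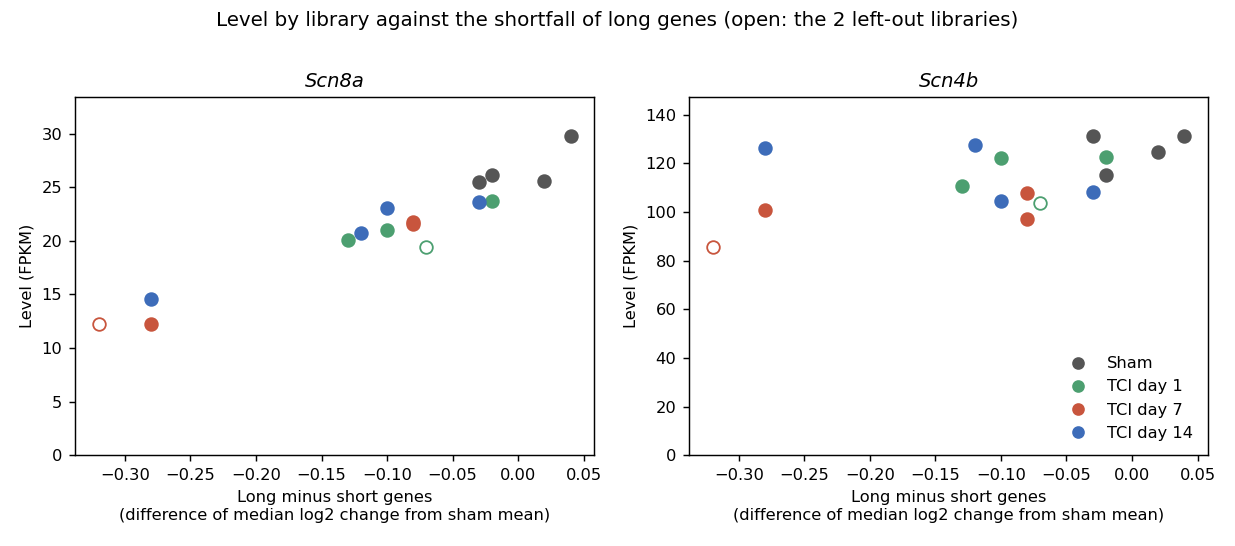
FPKM of Scn8a and Scn4b (vertical axes, from 0) against the difference between long and short genes in each library (horizontal axes, log2 scale), coloured by group, with open points for the 2 left-out libraries. Scn8a follows the horizontal axis over the 14 kept samples (r = 0.97), while Scn4b does so less (r = 0.30).

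The span of the genes and their day 7 differences stood in the following relation. Of the 4 tested alpha subunit genes spanning over 100 kb, Scn1a (119 kb), Scn8a (174 kb), Scn9a (148 kb) and Scn10a (112 kb), all had negative day 7 log2 fold changes. Scn11a (70.3 kb), Scn2b (12.1 kb) and Scn3b (22.5 kb) had positive ones and Scn4b a negative one. The correlation with the long gene difference was 0.85 for Scn1a, 0.86 for Scn9a and 0.61 for Scn10a over the 14 samples, and it was 0.30 for Scn4b, -0.24 for Scn11a, -0.46 for Scn2b and -0.56 for Scn3b. Scn4b was thus the 1 gene spanning under 100 kb that was called lower on day 7.

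Scn10a and Scn11a, the Nav1.8 and Nav1.9 genes of nociceptors, were not called on any day, and their values ran in different directions. Scn10a was at 101.3, 90.9, 94.19 and 104 FPKM in sham and at 84.52, 90.51 and 87.36 FPKM on day 7, where the groups did not overlap by a margin of under 1 FPKM. Its log2 fold change was -0.16 on both day 7 (SE 0.07, adjusted p = 0.139 by limma) and day 14 (SE 0.06, adjusted p = 0.0982 by limma). Scn11a was at 68.49, 57.9, 61.45 and 69.85 FPKM in sham and at 61.47, 71.6 and 72.77 FPKM on day 7, with 2 samples above the sham range and 1 within it. Its day 7 log2 fold change was 0.09, with a 95% interval of -0.11 to 0.29 and an adjusted p of 0.557. With the left-out replicate 3 of day 7, where Scn11a was at 39.71 FPKM and Scn10a at 51.96 FPKM, the Scn11a value turned to -0.10.

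Within a sample, Scn10a was 1.48 to 1.57 times as abundant as Scn11a in sham ganglia. This ratio came to 1.39 to 1.48 for day 1, to between 1.2 and 1.37 for day 7 and to between 1.2 and 1.44 for day 14, so that the kept samples of days 7 and 14 were below all sham samples. The left-out libraries, at 1.31 on day 1 and 1.31 on day 7, were below the sham range as well. Scn11a was 1.94 to 2.74 times as abundant as Scn8a in sham, 2.90 to 2.98 times on day 1 and 2.85 to 5.95 times on day 7. The share of Scn11a in the summed FPKM of the 6 alpha subunit genes was 25.7% in sham and 30.1% on day 7, whereas that of Scn8a was 10.7% and 8.14%. These ratios were chosen with the levels known and were not tested.

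**Figure D3:**
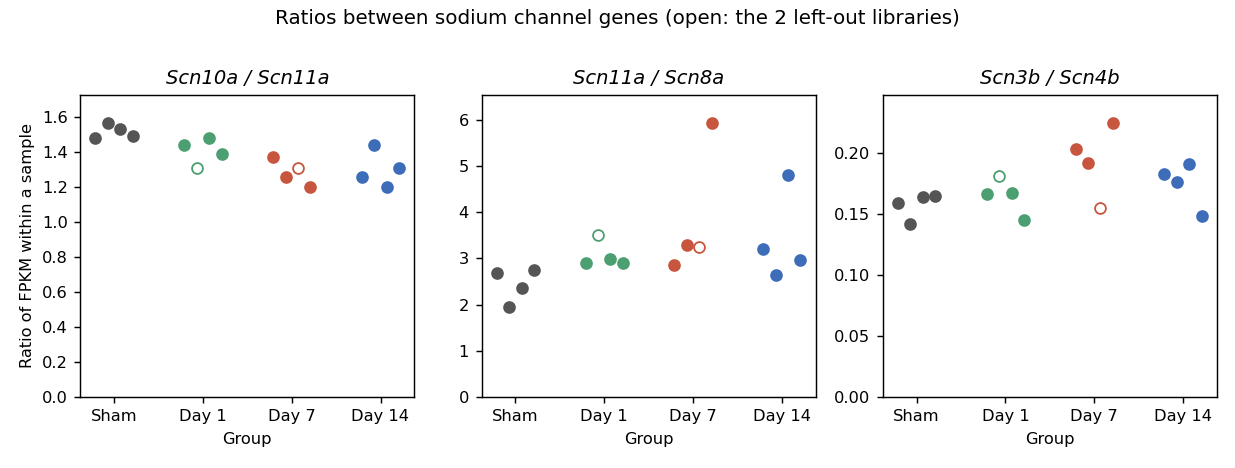
Ratios of FPKM within a sample (vertical axes, from 0) of Scn10a to Scn11a, Scn11a to Scn8a and Scn3b to Scn4b, by group, with open points for the 2 left-out libraries. Scn10a to Scn11a is at 1.48 to 1.57 in sham and 1.2 to 1.37 in the kept day 7 samples, and Scn3b to Scn4b is at 0.142 to 0.165 in sham and 0.192 to 0.225 in them.

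Scn9a was at 36.37, 37.19, 34.68 and 33.62 FPKM in sham. On day 7 it was at 32.09, 34.04 and 27.39 FPKM and on day 14 at 37.22, 33.01, 30.81 and 32.55 FPKM, and both groups overlapped sham. The day 7 log2 fold change was -0.19 with a 95% interval of -0.36 to -0.01 and an adjusted p of 0.148, and the day 14 value was -0.09 with an adjusted p of 0.487. Scn3a, which is known for its return in injured sensory neurons, lay between 0.78 and 0.91 FPKM in sham, 0.73 and 0.78 FPKM on day 7 and 0.69 and 1.04 FPKM on day 14. A two-sided exact permutation test of its mean log2 level gave p = 0.114 for day 7 and p = 0.686 for day 14 against sham, where the smallest p this design allows is 0.0286. Of 10 genes known for nerve injury, 7 could be tested. Csf1 and Jun were called higher on day 7 and none was called lower, where 14.5% of all genes tested were called higher. The 7 genes had a median log2 fold change of 0.16, and 3 of them had negative values, which were not called. The largest difference in size among the 7 was among these negative values. After centring on the pan-neuronal genes Gadd45a was called higher beside Csf1 and Jun, where 32.8% of all genes were called higher.

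The other beta subunit genes, Scn2b, whose product is bound to the alpha subunit by a disulfide bridge, and Scn3b, whose product binds it without one, were not lower on day 7. Scn3b was at 19.85, 18.69, 18.89 and 21.6 FPKM in sham and at 19.76, 20.67 and 22.59 FPKM on day 7. Scn2b was at 20.37, 17.99, 14.21 and 19.92 FPKM in sham and at 19.59, 18.47 and 20.76 FPKM on day 7. The groups overlapped for both. The day 7 log2 fold change was 0.08 for Scn3b (95% interval -0.10 to 0.27) and 0.12 for Scn2b (95% interval -0.15 to 0.39), and both turned to -0.07 with all 16 samples. The ratio of Scn3b to Scn4b was 0.142 to 0.165 in sham and 0.192 to 0.225 in the kept day 7 samples, but 0.155 in the left-out replicate 3.

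Scn2b and Scn4b are next to each other on rat chromosome 8, with no other protein-coding gene between them in RefSeq (GRCr8), and of the pair Scn4b was called lower on day 7, while the difference between their effects was not tested. RefSeq promoter windows were found for 7 of the 9 genes. The 250 bases before the start of these neighbours are shown because the genes adjoin and their starts differ in base composition. Capitals mark CG dinucleotides, and both are on the plus strand of GRCr8.
Scn2b, chr8:54322133-54322382: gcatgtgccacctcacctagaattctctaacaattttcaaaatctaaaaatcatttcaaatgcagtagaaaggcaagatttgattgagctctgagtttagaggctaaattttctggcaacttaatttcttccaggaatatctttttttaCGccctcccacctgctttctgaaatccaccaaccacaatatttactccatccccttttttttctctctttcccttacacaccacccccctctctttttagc
Scn4b, chr8:54343623-54343872: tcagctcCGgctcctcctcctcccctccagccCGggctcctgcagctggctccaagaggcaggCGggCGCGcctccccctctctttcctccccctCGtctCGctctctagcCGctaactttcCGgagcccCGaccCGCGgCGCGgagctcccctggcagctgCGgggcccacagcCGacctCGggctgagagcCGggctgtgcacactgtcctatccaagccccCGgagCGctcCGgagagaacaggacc
The Scn4b window held 21 CG dinucleotides and was 71.6% G or C, and the Scn2b window held 1 and was 38.8% G or C. The median over 33469 rat promoter windows of this length was 5 CG dinucleotides and 51.2%. Searched on both strands, neither window held the GC box (GGGCGG, found in 30.5% of all windows), the CCAAT box (CCAAT, 34%), the TATA box (TATAAA, 12.9%) or the AP-1 site (TGANTCA, 6.34%). Scn9a had 5 CG dinucleotides, Scn11a 4 and Scn3a 4, while Scn10a had 11 and Scn8a 53 at the starts given in the table, which are not the outermost starts of those 2 genes.

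The decline of Scn4b and Scn1a was set against that of neuronal RNA as a whole. The mean log2 level of the 15 pan-neuronal genes was 7.90 in sham and differed from it by -0.03 on day 1, -0.13 on day 7 and -0.08 on day 14. On day 7 all 15 of these genes had negative log2 fold changes, of which Rbfox3 and Snap25 were called. When each sample was centred on this list, which moved the day 7 median of all genes from 0.04 to 0.17, Scn4b was at -0.17 (adjusted p = 0.0715 by limma), Scn1a at -0.16 (adjusted p = 0.297 by limma) and Scn8a at -0.42 (adjusted p = 0.154 by limma) on day 7. Scn3b was then the only one of the 8 that was called, at 0.21 on day 7 (adjusted p = 0.0239 by limma), close to the median of all genes on that scale, and 33.2% of all genes were called in that fit, with 32.8% of all genes higher. Scn4b and Scn1a were below the median of all genes on the deposited scale. Centring shifts all genes of a sample alike, so it could not change this distance and is no check of it.

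**Figure D4:**
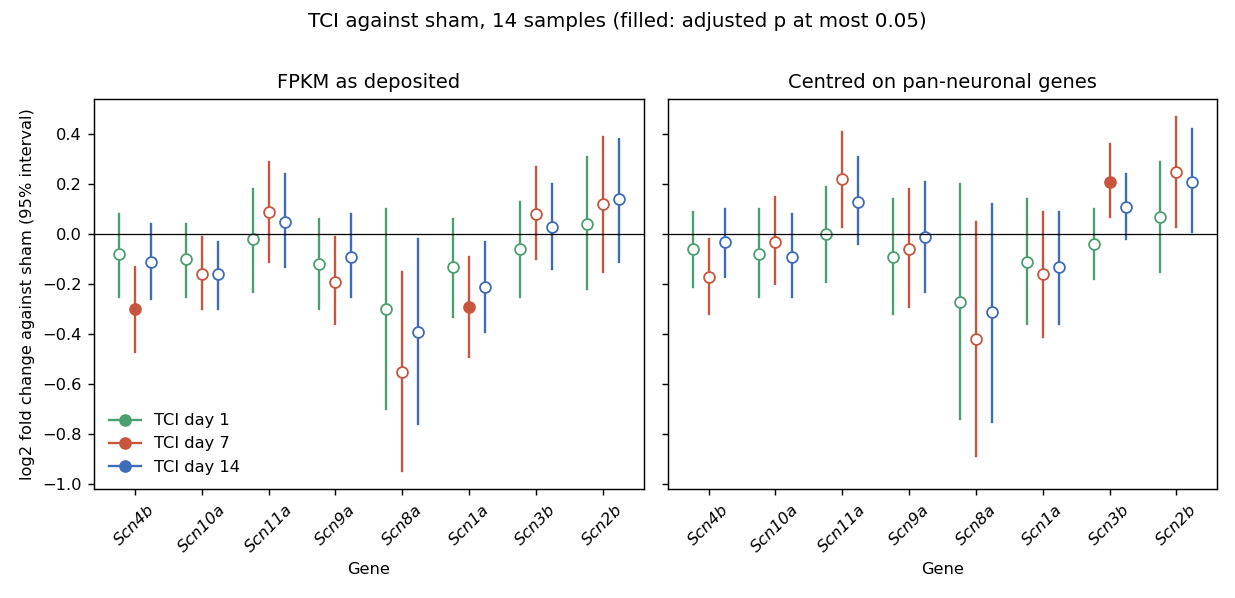
log2 fold change against sham (vertical axis) with its 95% interval for the 8 sodium channel genes tested, on TCI days 1, 7 and 14, from FPKM as deposited (left) and after centring each sample on 15 pan-neuronal genes (right). Filled points have an adjusted p of at most 0.05 by limma, which were Scn4b and Scn1a on day 7 on the left and Scn3b on day 7 on the right.

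Genes of other cell types were measured in the same samples. The summed level of 13 macrophage genes lay in the range of 70.8 to 133 FPKM in sham and of 93.3 to 112 FPKM on day 1. It lay at 954 to 1283 FPKM for day 7 and at 537 to 1866 FPKM for day 14, and 13 of 13 were called higher on day 7. That of 9 T cell genes was 5.85 to 8.68 FPKM in sham and 42 to 96.9 FPKM on day 7. None of the 9 was at 0 in all of the kept day 7 samples. Schwann cell genes summed to 8407 to 11276 FPKM in sham, 12550 to 13964 FPKM on day 1 and 6901 to 8580 FPKM on day 7. Of these 9 Schwann cell genes 0 were called against sham on day 1 or day 7, where 0% and 17.9% of all genes were called. The part of these cell types in the levels of the sodium channel genes was not tested.

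Markers of the neuron classes were set beside the channel genes. Of 13 genes of large myelinated neurons, 3 were lower and 0 higher on day 7, with a median log2 fold change of -0.25 against 0.04 over all genes, of which 3.45% were lower and 14.5% higher. The 3 were Nefh and Nefm, neurofilament subunits of large axons, and Kcna2, the Kv1.2 channel beside the node. Nefh was at 2330 FPKM in sham and 1892 FPKM on day 7, a log2 fold change of -0.30 (adjusted p = 0.00423 by limma). Of 14 nociceptor genes, 1 was higher and 0 lower on day 7, with a median of 0.02, and the 1 was Runx1. After centring on the pan-neuronal genes, which put the median of all genes at 0.17 with 32.8% higher and 0.378% lower, 2 of the large myelinated genes were lower (Nefh and Nefm) and 1 higher (Htr3b), with a median of -0.12. In that fit 4 nociceptor genes were higher, Runx1 among them, and 0 lower, with a median of 0.15. Over the 8 tested sodium channel genes the median was -0.17 on day 7 against 0.04 for all genes, and -0.10 on day 14 against 0.03.

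Other genes of the family were measured as well. Scn7a, which encodes the sodium sensor Nax, was at 134 ± 23.4 FPKM in sham (SD, n = 4), and Nalcn, the sodium leak channel, at 13.3 ± 0.294 FPKM. Scn2a was at 1.67 FPKM, and Scn4a, the skeletal muscle channel, at 0.925 FPKM. None of these 4 genes was called against sham on any day by limma, while 17.9% of all genes were called on day 7. Scn4a was at 18.66 FPKM in replicate 3 of TCI day 7, the library with skeletal muscle RNA, and between 0.62 and 1.25 FPKM in the other samples.

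Among 25 genes whose products bind, anchor or modify sodium channels, 23 were tested, and 5 were lower and 1 higher on day 7, against 3.45% lower and 14.5% higher over all genes, with a median log2 fold change of -0.13. The 5 were Nfasc, Nrcam, Cntn1 and Cntnap2, adhesion proteins of the node of Ranvier and the stretches beside it, and Dpysl2, which encodes CRMP2, a regulator of Nav1.7 trafficking. Cntn1, the contactin that joins beta subunits, fell from 137 ± 4.21 FPKM in sham (SD, n = 4) to 104 ± 10.3 FPKM on day 7 (SD, n = 3), a log2 fold change of -0.40 with an adjusted p of 8.43e-04 by limma, and its ranges of 130 to 139 and 92 to 112 FPKM did not overlap. Cntnap2 was at -0.40 (adjusted p = 0.00864 by limma) and Nfasc at -0.34 (adjusted p = 0.00369 by limma) on day 7. The 1 higher gene was Mapk14, the p38 kinase that phosphorylates Nav1.8, which rose from a mean of 18.5 to 21.7 FPKM. After centring on the pan-neuronal genes 1 of the 23 was lower, which was Cntn1 at -0.27, and 1 was higher, which was Mapk14 at 0.34, against 0.378% lower and 32.8% higher over all genes. Pdzd2, which encodes a protein bound to Nav1.8, was called on day 14 alone, at -0.71 (adjusted p = 0.00978 by limma).

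Genes for pumps and exchangers that remove the sodium let in by these channels were tested too. Atp1b1, which encodes a beta subunit of the sodium pump, was at 569 to 602 FPKM in sham and 468 to 475 FPKM on day 7, a log2 fold change of -0.31 (SE 0.05, adjusted p = 7.56e-04 by limma). Slc8a3, a sodium-calcium exchanger gene, was at 3.46 to 4.94 FPKM in sham and 2.44 to 2.96 FPKM on day 7, a log2 fold change of -0.53 (SE 0.12, adjusted p = 0.00765 by limma). The groups overlapped for neither gene. Atp1b1 was also called lower on day 14, at -0.22 (adjusted p = 0.00598 by limma), and Slc8a3 was at -0.25 with an adjusted p of 0.141.

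Between TCI days none of the 8 sodium channel genes was called, where limma called 10.4% of all genes for day 7 against day 1, 6.96% for day 14 against day 1 and 0.0998% for day 14 against day 7. At an unadjusted p under 0.05, Scn4b was the 1 gene of the 8 for day 7 against day 1 (23.6% of all genes) and for day 14 against day 7 (9.96%), and for day 14 against day 1 there were 0 (21.8%). By the ranges, all kept day 7 samples were below all sham samples for 4 of the 8, Scn1a, Scn8a, Scn10a and Scn4b, against 10.1% of all genes. On day 14 this held for Scn1a and Scn8a, 2 of the 8, against 5.38% of all genes, and on day 1 for Scn8a, 1 of the 8, against 5.73%. None of the 8 had all kept samples of a TCI day above all sham samples, against 6.17% of all genes on day 1, 23.8% on day 7 and 13.8% on day 14.

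The channel genes fell into sets that varied together over the 14 samples, which share libraries and tissue makeup, so the correlations are given as a description. Scn1a, Scn8a and Scn9a went together, with a Pearson r of log2 levels of 0.89 between Scn1a and Scn8a and 0.84 between Scn8a and Scn9a, and of 0.80 for both about the group means. Scn11a went with Scn3b (0.73, and 0.69 about the group means). Scn10a and Scn11a had an r of 0.40 over all samples and of 0.80 about the group means. Scn8a and Scn3b ran in opposite directions (-0.60, and -0.67 about the group means).

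**Figure D5:**
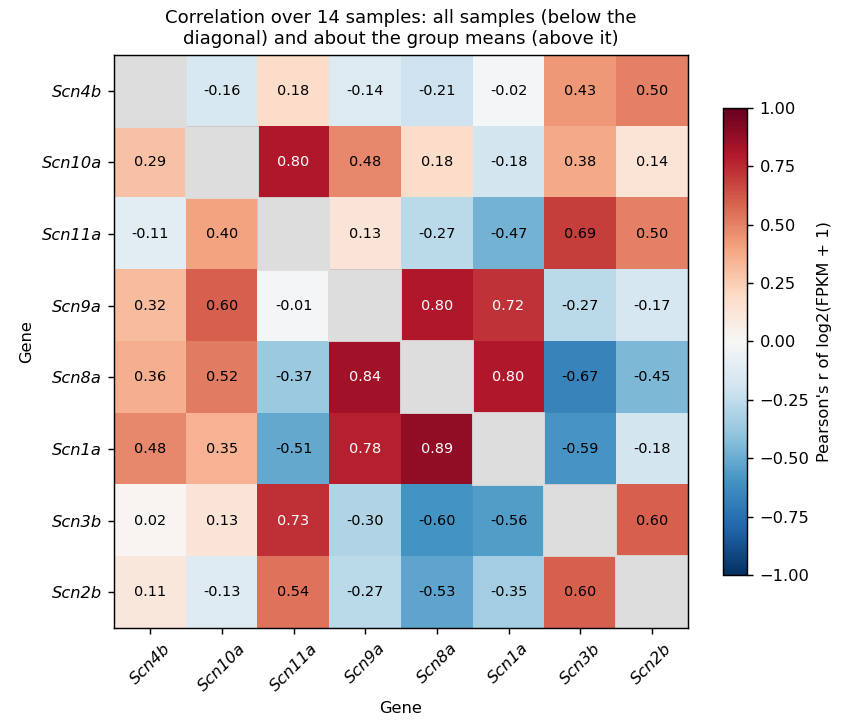
Pearson's r of log2(FPKM + 1) between the 8 tested sodium channel genes over the 14 samples, for all samples below the diagonal and about the group means above it, coloured from -1 to 1. Scn1a, Scn8a and Scn9a form a block at 0.78 to 0.89 below the diagonal, and Scn10a with Scn11a changes from 0.40 to 0.80 across it.

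Among 9537 genes with a mean of at least 5 FPKM, those most like Scn8a were LOC108350133 at an r of 0.99 over 14 samples, Amer1 at 0.98 and Kcna1, the Kv1.1 channel gene, also at 0.98. For Scn1a they were Tpp2, Gabrg1 and Myh10, all at 0.94, and for Scn9a Peg3 at 0.94, Ryr2 at 0.94 and Ank2, the ankyrin-B gene, at 0.92. For Scn10a they were Rab14 at 0.91, followed by Ret, the receptor of GDNF family ligands, and Mfsd6, both at 0.87. Scn11a was most like Plcb3 at 0.92, Mrgprb4, a receptor gene of unmyelinated neurons, at 0.87 and Pitpnc1 at 0.86. For Scn4b, Kcnip3 and Nat8l were both at 0.86. Scn3b was most like Vps4a at 0.95, with RGD1311739 and Anxa5 at 0.93, and Scn2b like Lyplal1 and Haus4 at 0.84 and Ccdc85b at 0.80. With all 16 samples Tpp2 was at 0.38 with Scn1a and Lyplal1 at 0.43 with Scn2b, so these 2 rested on the choice of samples.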

How the data were processed

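Per the labels and the study's methods, the authors filtered the reads for quality, aligned them (HISAT, Bowtie2) and had RSEM estimate each gene's FPKM, deposited with 2 decimals in 1 table per sample. The submitters' processing notes name CASAVA 1.4 and Bowtie2. The genome build and annotation are not given in the sources used here, and the number of fragments behind a value is not in the tables.

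From the deposited FPKM, log2(FPKM + 1) of all 4 groups entered 1 linear model per gene (limma 3.58.1 in R 4.3.3, eBayes with an intensity trend, Benjamini-Hochberg over all genes tested). The procedure was tested on simulated data. Samples with the same replicate number are different animals. The sodium channel genes, the gene lists and the tests were chosen with earlier results of these data known. Beside the members, text names the other family genes, examples of the partner and pump lists with the largest day 7 differences, and the 3 genes with the highest r for each member. Called genes of lists with few calls, and all ratios, were named after their values were seen. Alternatives were all 16 samples, 2 groups only, no trend, quantile and TPM scaling, pan-neuronal centring, other filters and pseudocount, a replicate block, the study's cut-offs and each sample left out. Results for some genes of these lists are not reported here.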

Additional observations from a re-analysis of the deposited data

Results flagged for a closer look

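Within the groups of 4 samples, 36 combinations of gene and group were searched for a sample far from the other 3, and 2 were found, where chance gives about 1 in 20. Scn8a in replicate 2 of sham was at 29.79 FPKM, above the other 3 sham samples at 25.5 to 26.2 FPKM. Without that sample the day 7 log2 fold change of Scn8a was -0.50 and that of Scn1a, which was also highest there, was -0.22. Scn10a in replicate 3 of TCI day 7, a library that the study's text leaves out and that held 26946 FPKM of skeletal muscle genes, was at 51.96 FPKM, below the other 3 day 7 samples at 84.5 to 90.5 FPKM.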

How the results depend on the processing

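The count of sodium channel genes called on day 7 was 2 (Scn1a and Scn4b). It was 3 with all 16 samples and after quantile normalization (Scn8a added in both), 1 with no filter, with no intensity trend and with only the 2 groups compared (Scn4b in each), 1 with centring on the pan-neuronal genes over 14 or all 16 samples (Scn3b, higher), and 0 at the study's cut-offs. Leaving out 1 sample each gave 0 to 3, with 0 without replicate 4 of TCI day 7 and Scn1a as the 1 call without its replicate 1. Replicate numbers are shared between groups but did not pair the samples, since over 18 pairs the correlation of deviations from the group means ran from -0.10 to 0.27 and passed 0.1 in 3. The fit with the replicate number as a block called 4 on day 7 (Scn1a, Scn8a, Scn9a and Scn4b). On day 14 the count was 0, and it was 1 without the 2 libraries low in long genes (Scn8a), and 0 to 1 when 1 sample each was left out (Scn10a without replicate 1 of TCI day 14, Scn1a without replicate 4 of TCI day 7). For day 7 against day 1 the count was 0, and 1 after centring (Scn3b, 0.25). The causes of these changes were not tested. Signs turned for values that were not called. With all 16 samples the day 7 values were -0.10 for Scn11a, -0.07 for Scn2b and -0.07 for Scn3b, and Scn3b was at -0.01 for day 7 against day 1. On day 1 Scn11a was at 0.06 with all 16 samples centred and at -0.09 to 0.02 with samples left out, and Scn2b at -0.06 to 0.10. On day 14 Scn3b was at -0.01 on the TPM scale, -0.01 after quantile normalization, -0.05 without the 2 libraries and -0.05 to 0.07 with samples left out. Of 676 single values, which cover the 8 genes against sham and the 2 values between TCI days named in the text (Scn4b for day 14 against day 7 and Scn3b for day 7 against day 1), 631 kept their sign and side of the threshold, 19 lost a call, 13 gained one and 13 turned in sign. Of the other 572 values between TCI days 34 turned in sign, and 0 of the 572 were called by limma in either fit. The tables hold no counts, so no counting error was computed.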
